A study of Mus musculus with 6 samples.

Results

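The genes examined here encode enzymes that make, remodel and break down phospholipids and sphingolipids. They were taken by gene symbol alone, as the probe sets with 1 annotated symbol that starts with Pla2g, Cers, Smpd, Sgms, Sphk, Lpcat, Sptlc, Degs, Asah, Pcyt, Ptdss, Chpt, Cept or Pld and a digit, or that is Ugcg or Pemt. This gave 120 of the 45037 probe sets tested, standing for 59 of 18193 genes. The study profiled dedifferentiated fat (DFAT) cells and the mature adipocytes (AC) that such cells come from, on 3 Affymetrix mouse arrays of each. The paper set each of these groups against hepatocytes and liver stem cells, and the comparison of DFAT with AC was made here. The DFAT cells were a line that ceiling culture, in which floating adipocytes attach and lose their lipid, had given from adipocytes of GFP transgenic mice. The AC were isolated from mouse fat tissue. Strain and age were not given for either group, a GFP transgene was not stated for AC, and no treatment was named. DFAT was described as a preadipocyte line, so its arrays may share 1 line, and no source tells whether a group's arrays stem from different animals or cultures. The p-values then measure only the spread between these arrays.

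Phosphatidylcholine and phosphatidylethanolamine, the main lipids of cell membranes, are made in the Kennedy pathway, in which an enzyme activates the head group with CTP and a transferase joins it to diacylglycerol. Fatty acids of the finished lipids are exchanged by phospholipases and acyltransferases. Sphingolipids start from serine and a fatty acyl-CoA, pass through ceramide, and end as sphingomyelin, as glycolipids or, after ceramide is cut, as sphingosine and its phosphate. In fat tissue, phosphatidylcholine coats the lipid droplet, and ceramide is studied for its link to insulin action.

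Values were RMA values on the log2 scale, in which 1 unit is a doubling of signal, and differences are DFAT minus AC. Where a gene had several probe sets, the brightest on average stood for it, and levels of different probe sets were not set against each other. The background level of an array, which says nothing of detection, was set at percentile 95 of the array's 124 probe sets for sense organ, lens, retina and sperm genes, and lay between 5.68 and 5.82 on the DFAT arrays and between 5.73 and 6.04 on the AC arrays. Calls were also made under 4 other scalings, which were quantile normalization again and a shift of each array to a common level of its median, of 12 reference genes or of 18 hybridization control probe sets. As deposited, 8133 of the 45037 probe sets were lower and 9152 higher in DFAT cells. With the hybridization controls these counts were 3405 and 12442, and with the reference genes 19541 and 6310. The 18 white adipocyte markers had a mean of 5.47 to 5.54 on the DFAT arrays and of 12.13 to 12.32 on the AC arrays. The AC arrays also held markers of other cell types. These were 18 endothelial, 19 macrophage and 16 epithelial and mammary markers. Their means were 4.20 to 4.65 on the DFAT arrays and 6.67 to 9.64 on the AC arrays. The array of AC replicate 1 stood apart. It correlated at 0.971 and 0.969 (Pearson) with AC replicates 2 and 3, and these correlated at 0.991. Its macrophage markers averaged 6.67, against 8.19 and 8.26 on the other AC arrays, and its endothelial markers 9.64, against 7.92 and 7.79. Its epithelial and mammary markers averaged 8.99, against 8.39 and 8.31. In bulk RNA, fewer cells of a type and less RNA per cell cannot be told apart.

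In DFAT cells, 11 of the 59 enzyme genes were higher and 16 were lower at an adjusted p under 0.05 from limma, and 32 did not pass the test. Over all 18193 genes, 22.6% were higher and 23.8% were lower. The enzymes together were thus called about as often as other genes, at 45.8% against 46.4%, and their median difference was -0.09, against -0.10 over all genes. Within several steps, members moved in opposite directions. The phospholipase A2 gene Pla2g4a, the ceramide synthase gene Cers6 and the glucosylceramide synthase gene Ugcg had the largest rises, by log2 differences of 3.90, 2.82 and 2.13. Chpt1, which makes phosphatidylcholine, Pla2g7, which breaks down platelet-activating factor, and the ceramide synthase gene Cers4 had the largest falls in the deposited values, by differences of -3.98, -2.74 and -2.47. In DFAT cells Pla2g7 and Cers4 lay at background level. With values under that level set to it their differences were -0.49 and -1.30, behind those of Pcyt2 (-1.97) and Sphk1 (-1.66). This floor differs between arrays, and a gene under it on all 6 arrays gets a difference of -0.13 from the floor alone. Of the 59 genes, 8 rose and 10 fell by at least 1 on the log2 scale, and of all genes 13.4% and 13.8% did. On the arrays, 35 of the 59 genes had groups that did not overlap, against 60.0% of all genes. Of the 59, 17 were at background level in both groups, against 37.8% of all genes. Of these 17, 2 passed the test, Pla2g5 and Pld4, and among all genes 1141 of the 6878 at background level in both groups did. The shares called, 45.8% and 46.4%, are thus not like for like.

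**Figure D1:**
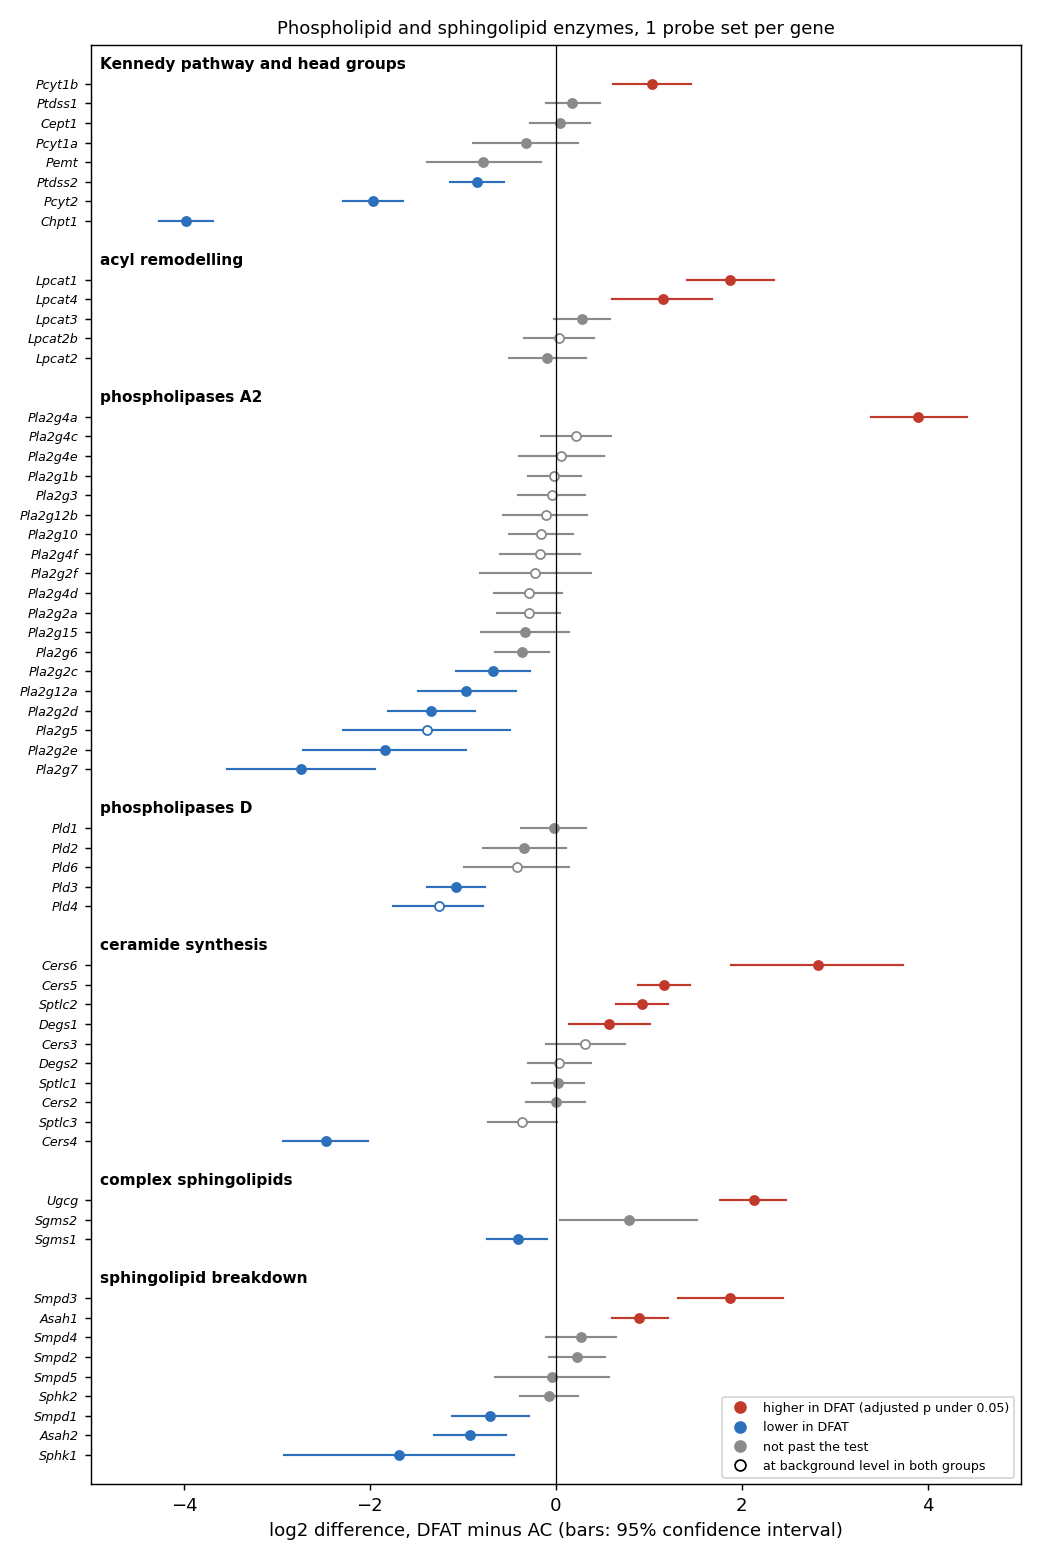
Log2 difference, DFAT minus AC, of the 59 enzyme genes in the order of their roles, with the 95% confidence interval from limma as bars. Red points were higher and blue points lower in DFAT cells, grey points did not pass the test, and open points lay at background level in both groups. Pla2g4a and Chpt1 lie farthest out, at 3.90 and -3.98.

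The promoters of the 3 genes with the largest rise and the 3 with the largest fall in the deposited values are shown, although the places of Pla2g7 and Cers4 among the falls rest on DFAT values under background level. Each run gives 250 bases before and 50 bases after a transcription start of RefSeq in GRCm38.p6, from 5′ to 3′ in the direction of the gene, and where RefSeq lists several starts, as for Pla2g4a, the one farthest upstream was taken. Capitals mark matches on either strand to the letters GGGCGG of the GC box, to the CCAAT box, which is named for its letters, or to the letters CACGTG of an E-box. The TATA box was searched as TATAAA, the motif of C/EBP proteins as TTGCNNAA, the motif of AP-1 as TGACTCA, and DR1 as a direct repeat of AGGTCA with 1 base between, and none of these matched in the 6 windows.
Pla2g4a, chr1:149961241-149961540, minus strand: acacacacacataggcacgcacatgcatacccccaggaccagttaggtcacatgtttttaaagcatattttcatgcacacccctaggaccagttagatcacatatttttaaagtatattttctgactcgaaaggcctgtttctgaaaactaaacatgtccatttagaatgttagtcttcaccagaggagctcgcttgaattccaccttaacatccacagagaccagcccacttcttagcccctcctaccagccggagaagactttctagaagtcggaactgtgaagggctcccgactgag
Cers6, chr2:68861191-68861490, plus strand: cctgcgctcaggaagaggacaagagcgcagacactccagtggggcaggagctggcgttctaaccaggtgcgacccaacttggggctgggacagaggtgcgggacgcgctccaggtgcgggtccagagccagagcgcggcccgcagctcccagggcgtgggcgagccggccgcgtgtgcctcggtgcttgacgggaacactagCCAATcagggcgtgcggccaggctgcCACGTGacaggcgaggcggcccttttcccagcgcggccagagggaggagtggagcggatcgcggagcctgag
Ugcg, chr4:59189300-59189599, plus strand: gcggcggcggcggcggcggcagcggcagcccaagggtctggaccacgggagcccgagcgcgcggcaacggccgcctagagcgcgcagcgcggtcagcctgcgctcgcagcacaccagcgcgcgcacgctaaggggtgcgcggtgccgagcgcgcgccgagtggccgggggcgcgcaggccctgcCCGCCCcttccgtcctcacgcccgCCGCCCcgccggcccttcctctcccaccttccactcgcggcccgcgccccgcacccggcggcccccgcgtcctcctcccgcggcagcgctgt
Chpt1, chr10:88503921-88504220, minus strand: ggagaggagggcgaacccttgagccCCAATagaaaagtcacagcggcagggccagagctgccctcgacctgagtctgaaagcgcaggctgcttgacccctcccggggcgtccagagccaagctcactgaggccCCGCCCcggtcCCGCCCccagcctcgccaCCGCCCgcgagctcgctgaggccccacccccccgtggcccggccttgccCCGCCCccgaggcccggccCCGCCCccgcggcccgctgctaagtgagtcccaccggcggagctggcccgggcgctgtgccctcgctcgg
Pla2g7, chr17:43568201-43568500, plus strand: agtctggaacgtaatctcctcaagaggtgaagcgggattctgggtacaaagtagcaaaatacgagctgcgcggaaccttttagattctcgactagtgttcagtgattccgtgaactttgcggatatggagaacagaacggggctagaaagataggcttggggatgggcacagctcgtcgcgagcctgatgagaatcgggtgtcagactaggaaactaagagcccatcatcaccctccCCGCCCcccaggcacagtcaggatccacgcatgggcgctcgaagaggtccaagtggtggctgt
Cers4, chr8:4493155-4493454, plus strand: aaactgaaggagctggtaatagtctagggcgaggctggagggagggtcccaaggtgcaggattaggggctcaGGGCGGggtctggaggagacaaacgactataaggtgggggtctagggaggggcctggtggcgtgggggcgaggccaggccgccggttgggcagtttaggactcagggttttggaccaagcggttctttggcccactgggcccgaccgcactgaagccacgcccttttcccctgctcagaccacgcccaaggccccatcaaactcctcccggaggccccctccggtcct

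The windows differed in base composition. The Ugcg and Chpt1 windows were 81.3% and 75.3% G or C, and the Pla2g4a window was 45.3%, where the median of all 27025 promoters, 1 per gene, was 52.7%. The Chpt1 window held 5 GC boxes, and Ugcg held 2. The Cers6 window held a CCAAT box with its first base at -48 and an E-box at -22 from the start. A GC box stood in 35.9% of all promoters, a CCAAT box in 38.0% and an E-box in 7.24%. Of the enzyme genes, 52 had a window. Their median was 59.2% G or C. A GC box stood in 5 of the 9 windows of genes that rose, in 10 of the 15 of genes that fell and in 14 of the 28 of genes not past the test, and a CCAAT box in 3 of 9, 6 of 15 and 13 of 28. The C/EBP motif was in 0 of 9 and 1 of 15, and in 10.7% of all promoters. TATAAA was in 0 of 9 and 1 of 15, and in 14.2% of all promoters, and the AP-1 motif in 0 of 9 and 2 of 15, and in 5.17% of all promoters. No DR1 was found in the 52 windows, and 0.0444% of all promoters held this exact run. These matches are letters in a window and show no binding.

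Of the 8 genes of the Kennedy pathway and of head group exchange, 3 fell, 1 rose and 4 missed the threshold. Centred on the hybridization controls, 2 fell and 1 rose, and centred on the reference genes 5 fell and 1 rose. Chpt1, the cholinephosphotransferase that adds the choline head group to diacylglycerol, had log2 values of 9.08, 8.90 and 9.04 on the DFAT arrays and of 12.94, 13.05 and 12.98 on the AC arrays. The groups lay far apart and each was tight. Chpt1 thus averaged 9.01 ± 0.10 in DFAT cells and 12.99 ± 0.06 in AC (SD, n = 3 each), a 15.8-fold fall (adjusted p = 2.74e-07 from limma). Each of the other 3 probe sets of Chpt1 also fell, by differences of -4.66, -4.46 and -3.51. Cept1, which does the same step and also takes ethanolamine, had 9.98 ± 0.06 in DFAT cells and 9.93 ± 0.18 in AC (SD, n = 3 each), with a difference of 0.05 (95% confidence interval -0.28 to 0.37).

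Pcyt2, which activates ethanolamine with CTP, had 7.07, 7.18 and 7.10 on the DFAT arrays and 9.18, 9.19 and 8.89 on the AC arrays. It fell 3.91-fold (adjusted p = 1.67e-05 from limma), with no overlap. Pcyt1b and Pcyt1a do this step for choline. Pcyt1b had 5.74, 5.78 and 6.31 on the DFAT arrays and 4.97, 4.94 and 4.81 on the AC arrays, where it was at background level. It rose by 1.04 (adjusted p = 0.00248 from limma), but this probe set reached the background level of its array on DFAT replicate 3 alone, and with values under that level set to it the difference was 0.08 (adjusted p = 0.626 from limma). The other probe set of Pcyt1b stood above background level on the DFAT arrays, with a mean of 6.42 ± 0.08 there and of 3.84 ± 0.26 in AC (SD, n = 3 each), and rose by 2.59. Pcyt1a, the widely expressed form, had a difference of -0.32 (95% confidence interval -0.89 to 0.24), and of its 4 probe sets 1 passed the test, as higher by 0.59. Without AC replicate 1, the difference of Pcyt1a was -0.61 (adjusted p = 0.00387 from limma).

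Of the phosphatidylserine synthase genes, 1 passed the test. Ptdss2, which acts on phosphatidylethanolamine, had 8.98, 9.12 and 9.11 on the DFAT arrays and 9.87, 9.87 and 10.01 on the AC arrays, a fall of 0.85 (adjusted p = 0.00105 from limma). Of its 9 probe sets, 6 passed the test as lower. The 3 that did not pass had differences of -0.21, -0.21 and 0.01. At background level in both groups were 3 of the 9, and those with differences of -0.47 and -0.62 were among the lower ones. Centred on the hybridization controls, the difference of Ptdss2 was -0.39 (adjusted p = 0.259 from limma). Ptdss1, which acts on phosphatidylcholine, had a difference of 0.18 (95% confidence interval -0.11 to 0.48). Pemt, which methylates phosphatidylethanolamine to phosphatidylcholine and is best known from liver, had 6.39, 6.51 and 6.24 on the DFAT arrays and 6.53, 7.31 and 7.62 on the AC arrays. The groups of Pemt did not overlap, but AC replicate 1 lay next to the DFAT arrays, and the difference of -0.78 missed the threshold (adjusted p = 0.0505 from limma). Without AC replicate 1, the difference of Pemt was -1.09 (adjusted p = 0.000507 from limma).

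**Figure D2:**
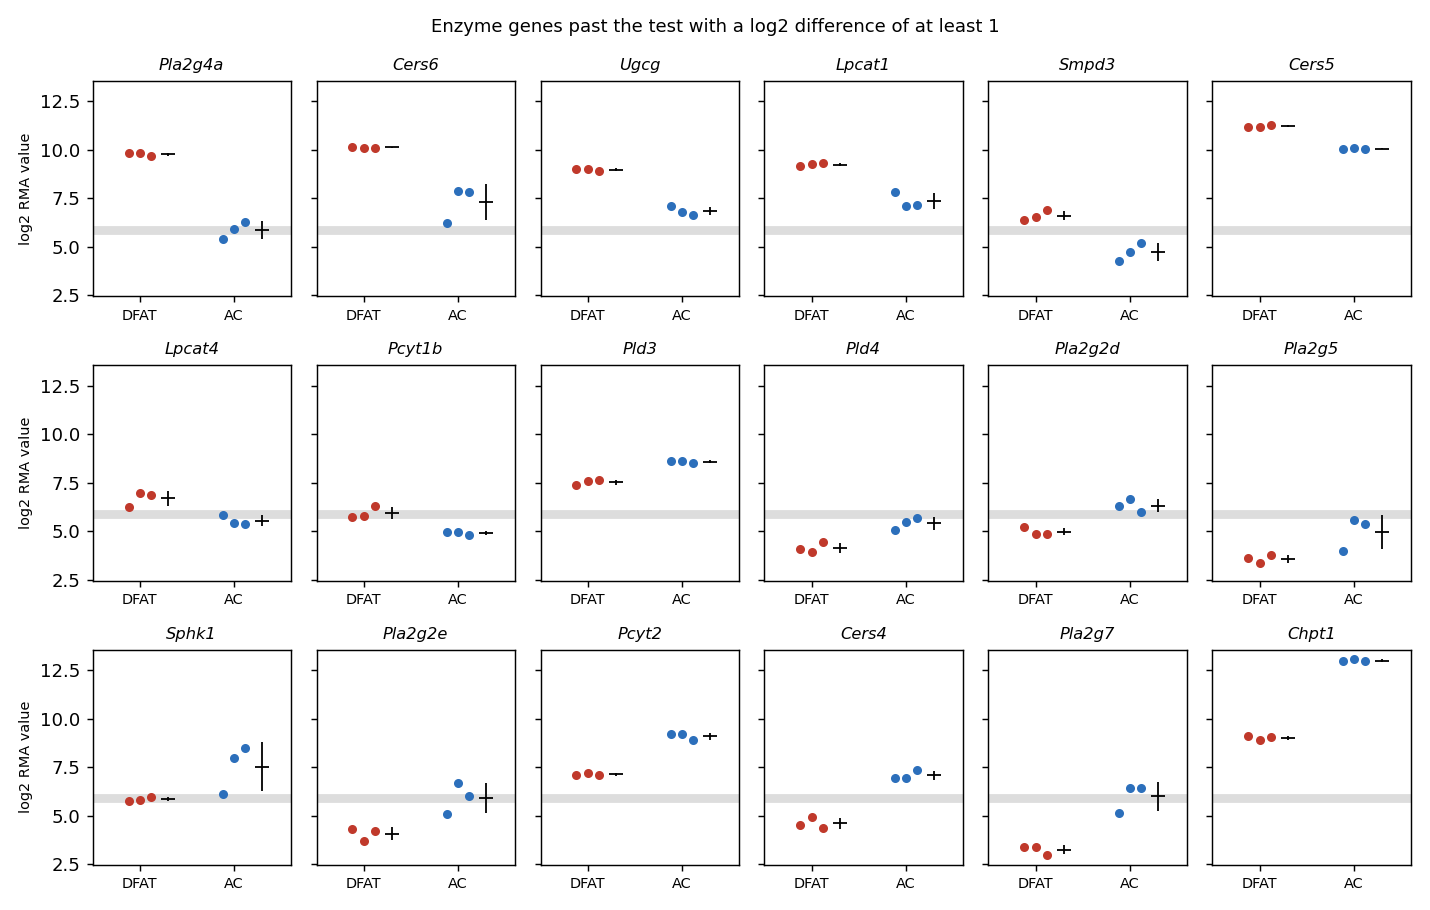
Log2 RMA values on the DFAT arrays (red) and AC arrays (blue) of the 18 enzyme genes past the test with a log2 difference of at least 1, in the order of their difference. Points are arrays in the order of replicate 1 to 3, black marks are the mean and SD, and a grey band shows the range of the arrays' background levels. The groups of each gene do not overlap, and in Sphk1, Cers6, Pla2g7, Pla2g2e and Pla2g5 the first AC point lies far below the other AC points.

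Of the 5 acyltransferase genes of the Lpcat family, which put a fatty acid back on a lysophospholipid, 2 rose and none fell in the values as deposited and under the 4 other scalings, with 3 higher after centring on array medians or on the hybridization controls. Lpcat1, known from lung for the lipid of surfactant, had 9.15, 9.28 and 9.31 on the DFAT arrays and 7.82, 7.13 and 7.15 on the AC arrays. It rose 3.67-fold (adjusted p = 0.000183 from limma). Here AC replicate 1 lay above the other AC arrays and nearest to the DFAT arrays. The 2 other probe sets of Lpcat1 above background level rose by 2.49 and 1.96, and its 2 probe sets at background level in both groups did not pass the test. Lpcat4 had 6.24, 6.99 and 6.86 on the DFAT arrays and 5.85, 5.44 and 5.35, at background level, on the AC arrays, a rise of 1.15 (adjusted p = 0.00509 from limma). Lpcat3, which prefers polyunsaturated fatty acids, had a difference of 0.28 (95% confidence interval -0.02 to 0.58), and Lpcat2, known from inflammatory cells, of -0.09 (95% confidence interval -0.50 to 0.33). Lpcat2b was at background level in both groups.

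Of the 19 phospholipase A2 genes, whose products free a fatty acid from a phospholipid, 11 were at background level in both groups. As a family, 6 were lower and 1 was higher. Centring on the hybridization controls gave 3 lower and 2 higher, and centring on the reference genes gave 12 lower and 1 higher. Lower calls over all 45037 probe sets went from 8133 as deposited to 3405 and 19541 under these scalings. Among the 12 lower were Pla2g1b, Pla2g2a, Pla2g4d, Pla2g5 and Pla2g10, which were at background level in both groups. The gene that rose was Pla2g4a, the cytosolic enzyme that releases arachidonic acid for prostaglandins and leukotrienes. Its values were 9.83, 9.82 and 9.69 on the DFAT arrays and 5.40, 5.92 and 6.30 on the AC arrays, of which AC replicate 1 lay under its background level of 5.92. Pla2g4a averaged 9.78 ± 0.08 in DFAT cells and 5.88 ± 0.45 in AC (SD, n = 3 each), a rise of 15.0-fold (adjusted p = 5.05e-06 from limma). Its relatives Pla2g4c, Pla2g4d, Pla2g4e and Pla2g4f were at background level in both groups, with differences between -0.29 and 0.22. So were Pla2g1b, Pla2g2a, Pla2g2f, Pla2g3, Pla2g10 and Pla2g12b, which belong to the secreted forms.

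Several secreted phospholipases A2 fell to background level. Pla2g7, which macrophages secrete and which inactivates platelet-activating factor, had 3.38, 3.39 and 2.96 on the DFAT arrays and 5.12, 6.44 and 6.40 on the AC arrays. The difference was -2.74 (adjusted p = 0.000422 from limma), and -3.18 without AC replicate 1, the array where Pla2g7 and the macrophage markers were both lower than on the other AC arrays. Pla2g2e, known from mouse fat cells, had 4.31, 3.67 and 4.22 on the DFAT arrays and 5.07, 6.65 and 6.0 on the AC arrays. It fell by 1.84 (adjusted p = 0.00557 from limma), and was above the background level of its array on AC replicate 2 alone. Pla2g2d, known from dendritic cells and lymphoid tissue, had 5.21, 4.85 and 4.88 on the DFAT arrays and 6.28, 6.67 and 6.0 on the AC arrays, and fell by 1.34 (adjusted p = 0.00109 from limma). AC replicate 1 was not the lowest AC array on this probe set of Pla2g2d. On its other probe set, at background level in both groups, AC replicate 1 was the lowest, at 3.92 against 5.19 and 5.55. That probe set was also called lower, by 1.58. Pla2g5 had 3.62, 3.35 and 3.77 on the DFAT arrays and 3.97, 5.58 and 5.36 on the AC arrays, all under the background levels, so that the difference it was called for (-1.39, adjusted p = 0.0233 from limma) lies below background level. With values under the background level set to it, the difference was -0.49 for Pla2g7, -0.56 for Pla2g2d and -0.44 for Pla2g2e, of which that of Pla2g2e no longer passed the test (adjusted p = 0.0645 from limma). The size of these falls thus rests on values under background level. The part of macrophages and other cells of the AC samples in these differences was not tested.

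Pla2g12a and Pla2g2c, further secreted enzymes, fell by 0.96 and 0.67 (adjusted p = 0.0111 and 0.0153 from limma). Pla2g2c was at background level in DFAT cells, and with values under that level set to it its difference was -0.34 (adjusted p = 0.101 from limma). The intracellular enzymes Pla2g6, which needs no calcium, and Pla2g15 of lysosomes stayed well above background level in both groups. Pla2g6 had a difference of -0.36 (95% confidence interval -0.65 to -0.07, adjusted p = 0.0533 from limma) and Pla2g15 of -0.33 (95% confidence interval -0.80 to 0.14). Without AC replicate 1, the differences of both passed the test, with an adjusted p of 0.00507 for Pla2g15. Further probe sets did not all go the same way. On all arrays, the second probe set of Pla2g15 lay higher in DFAT cells, by 0.68, and did not pass the test. For Pla2g6, 1 further probe set was called lower, at -0.60. Its remaining probe set, at background level in both groups, was at 0.41 and not past the test. One former member of the family in name, Plaat3, the adipocyte phospholipase A2 that was once called Pla2g16, falls outside the rule and was named after its values were seen. Plaat3 had 9.83, 9.77 and 9.71 on the DFAT arrays and 13.04, 13.14 and 13.17 on the AC arrays, a difference of -3.35 (adjusted p = 5.16e-07 from limma).

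Of the 5 genes with a phospholipase D symbol, 2 fell and none rose as deposited, and none passed the test after centring on the hybridization controls. Pld1 and Pld2, the enzymes that cut phosphatidylcholine into phosphatidic acid and choline, had differences of -0.02 (95% confidence interval -0.37 to 0.33) and -0.34 (95% confidence interval -0.78 to 0.11), and 1 of the 2 probe sets of Pld2 passed the test as lower. The falls were in Pld3 and Pld4, lysosomal proteins of the family that act as nucleases. Pld3 had 7.37, 7.57 and 7.63 on the DFAT arrays and 8.63, 8.62 and 8.52 on the AC arrays, a fall of 2.10-fold (adjusted p = 0.000394 from limma). Pld4, known from dendritic cells and macrophages, had 4.09, 3.93 and 4.42 on the DFAT arrays and 5.05, 5.50 and 5.69 on the AC arrays, under the background levels throughout. Pld6, a protein of the outer mitochondrial membrane, was also at background level in both groups.

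Among the 10 genes of ceramide synthesis, 4 rose, 1 fell and 5 missed the threshold. With the reference genes as the centre, 3 rose and 2 fell. Serine palmitoyltransferase catalyses the first step. Its subunit Sptlc1 had nearly the same level in both groups, at 9.24 ± 0.03 in DFAT cells and 9.22 ± 0.04 in AC (SD, n = 3 each), with a difference of 0.02 (95% confidence interval -0.26 to 0.30). Sptlc2, the partner subunit, had 9.25, 9.17 and 9.21 on the DFAT arrays and 8.34, 8.22 and 8.28 on the AC arrays, a rise of 0.93 (adjusted p = 0.000514 from limma). The 2 other probe sets of Sptlc2, which had lower signal, did not pass the test. Sptlc3 and Degs2 were at background level in both groups. Degs1, the desaturase that turns dihydroceramide into ceramide, rose by 0.57 (adjusted p = 0.0432 from limma), and by 0.37 without AC replicate 1. The other probe set of Degs1 averaged 11.15 in DFAT cells and 10.86 in AC. It was higher by only 0.29 and did not pass the test (adjusted p = 0.186 from limma). The mean over the probe sets of Degs1, higher by 0.43, did not pass either. The call for Degs1 was lost when any 1 of the DFAT arrays was left out and after centring on the reference genes (adjusted p = 0.252 from limma).

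The ceramide synthases, which differ in the length of the fatty acid they attach, went in opposite directions. Cers6, which prefers palmitoyl-CoA, had 10.17, 10.10 and 10.12 on the DFAT arrays and 6.25, 7.87 and 7.82 on the AC arrays. It rose by 2.82 (adjusted p = 0.0008 from limma), and by 2.28 without AC replicate 1, whose value lay far below the other AC arrays. Cers5, of the same preference, had 11.17, 11.21 and 11.30 on the DFAT arrays and 10.04, 10.10 and 10.07 on the AC arrays, a rise of 2.23-fold (adjusted p = 0.000151 from limma). Cers4, which uses longer acyl chains, had 4.51, 4.93 and 4.34, at background level, on the DFAT arrays and 6.94, 6.93 and 7.34 on the AC arrays, a fall of 2.47 (adjusted p = 3.32e-05 from limma). Each of the 3 probe sets of Cers4 was lower, by differences between -3.99 and -2.12, and with values under background level set to it the difference of Cers4 was -1.30. Cers2, which makes very-long-chain ceramides, stood at 10.01 ± 0.16 in DFAT cells and 10.01 ± 0.06 in AC (SD, n = 3 each), and its difference had a 95% confidence interval of -0.32 to 0.31. Cers3, known from skin and testis, was at background level in both groups. The directions of Cers4, Cers5 and Cers6 were the same, and each passed the test, under the 4 other scalings.

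Of the 3 genes that turn ceramide into complex sphingolipids, Ugcg rose. It encodes glucosylceramide synthase, the first step to gangliosides, and had 9.01, 9.03 and 8.90 on the DFAT arrays and 7.10, 6.81 and 6.65 on the AC arrays. The rise was 4.37-fold (adjusted p = 1.86e-05 from limma), and the 2 other probe sets of Ugcg above background level rose by 2.24 and 2.22. Of the sphingomyelin synthase genes, 1 passed the test. Sgms1 of the Golgi fell by 0.41 (adjusted p = 0.0481 from limma), with 1 of its 4 probe sets past the test and a difference of 0.05 (adjusted p = 0.900 from limma) after centring on the hybridization controls. Sgms2 of the plasma membrane had 8.61, 8.30 and 8.44 on the DFAT arrays and 6.86, 8.08 and 8.05 on the AC arrays. Its difference was 0.79 (adjusted p = 0.0875 from limma), and 0.38 without AC replicate 1 (adjusted p = 0.0442 from limma). The other probe set of Sgms2, also above background level, had a difference of 0.02 (adjusted p = 0.958 from limma).

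Of the 9 genes of sphingolipid breakdown, 2 rose, 3 fell and 4 missed the threshold. With the hybridization controls as the centre, 3 rose and none fell. Smpd3, the neutral sphingomyelinase linked to exosome release, had 6.40, 6.56 and 6.90 on the DFAT arrays and 4.26, 4.76 and 5.18, at background level, on the AC arrays. It rose by 1.88 (adjusted p = 0.000523 from limma), and its 2 other probe sets rose by 1.05 and 0.98. With values under background level set to it, the difference of Smpd3 was 0.72 (adjusted p = 0.001 from limma). Smpd1, the acid sphingomyelinase of lysosomes, fell by 0.71 (adjusted p = 0.0152 from limma), with a like fall of 0.66 in its second probe set. Smpd2, Smpd4 and Smpd5 had differences of 0.23, 0.27 and -0.04, short of the threshold, although 2 probe sets of Smpd4 at background level in both groups were called higher.

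The ceramidases also went in opposite directions. Asah1, the acid ceramidase of lysosomes, had 10.83, 10.94 and 10.83 on the DFAT arrays and 9.83, 10.08 and 9.98 on the AC arrays, a rise of 0.90 (adjusted p = 0.000937 from limma). Asah2, the neutral ceramidase, had 7.04, 7.09 and 7.12 on the DFAT arrays and 8.33, 7.81 and 7.88 on the AC arrays, a fall of 0.92 (adjusted p = 0.00298 from limma). The call for Asah2 was lost after centring on the hybridization controls (difference -0.46, adjusted p = 0.131 from limma). Sphk1, a kinase that makes sphingosine 1-phosphate, had 5.74, 5.81 and 5.94 on the DFAT arrays and 6.10, 7.95 and 8.5 on the AC arrays. It had the widest spread of the 59 genes among AC arrays, with an SD of 1.26, and AC replicate 1 lay close to the DFAT arrays. The fall of Sphk1 was 1.69 (adjusted p = 0.0381 from limma). It was 2.39 without AC replicate 1 (adjusted p = 1.89e-05 from limma), and with AC replicate 2 or 3 or any 1 of the DFAT arrays left out it did not pass the test, with an adjusted p between 0.089 and 0.115 from limma. Sphk2 had a difference of -0.07 (95% confidence interval -0.38 to 0.24).

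**Figure D3:**
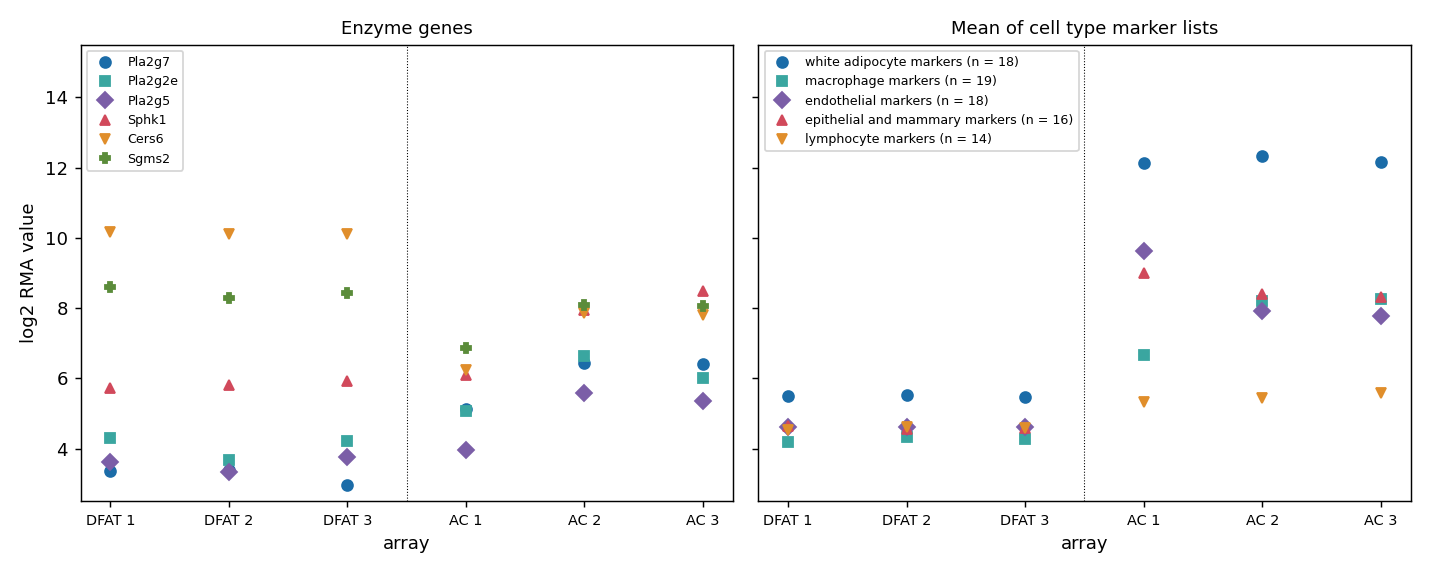
Log2 RMA values of 6 enzyme genes on each array (left) and the mean log2 value of 5 lists of cell type markers (right), with the DFAT arrays left of the dotted line and the AC arrays right of it. The 6 genes were chosen from the 13 that lay more than 0.5 below both other AC arrays on AC replicate 1, so they lie below by choice. Lpcat1 and Pld2, not shown, lay above by more than 0.5. On AC replicate 1 the macrophage markers lie at 6.67 against 8.19 and 8.26, and the endothelial markers lie at 9.64 against 7.92 and 7.79.

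More of these genes stood apart on AC replicate 1 than on any other array. On it, 15 of the 59 genes lay more than 0.5 from both other AC arrays, 13 of them below. This held for 1 and 3 genes on AC replicates 2 and 3 and for 1 gene on each DFAT array. The median SD of the 59 genes was 0.11 in DFAT cells and 0.25 in AC, close to the 0.11 and 0.24 of all genes. Without AC replicate 1, 13 of the enzyme genes rose and 22 fell in DFAT cells. Over all genes, neither the share apart on this array nor the share called without it was counted. The 27 enzyme genes called with all arrays were among the 13 and 22. Lpcat3 and Sgms2 joined those that rose, while Pcyt1a, Pemt, Pla2g15, Pla2g4d, Pla2g6 and Pld6 joined those that fell. Pla2g4d and Pld6 were at background level in both groups. Which cells of the AC samples gave these differences between arrays was not tested.

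Of the 120 probe sets, 22 were higher and 32 lower in DFAT cells, where 20.3% and 18.1% of all probe sets were, or 38.4% together. Of the 30 genes with several probe sets, 15 had a representing probe set past the test. In 8 of these each further probe set had the same call, and in 7 some did not pass. No gene had probe sets called in opposite directions.

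**Figure D4:**
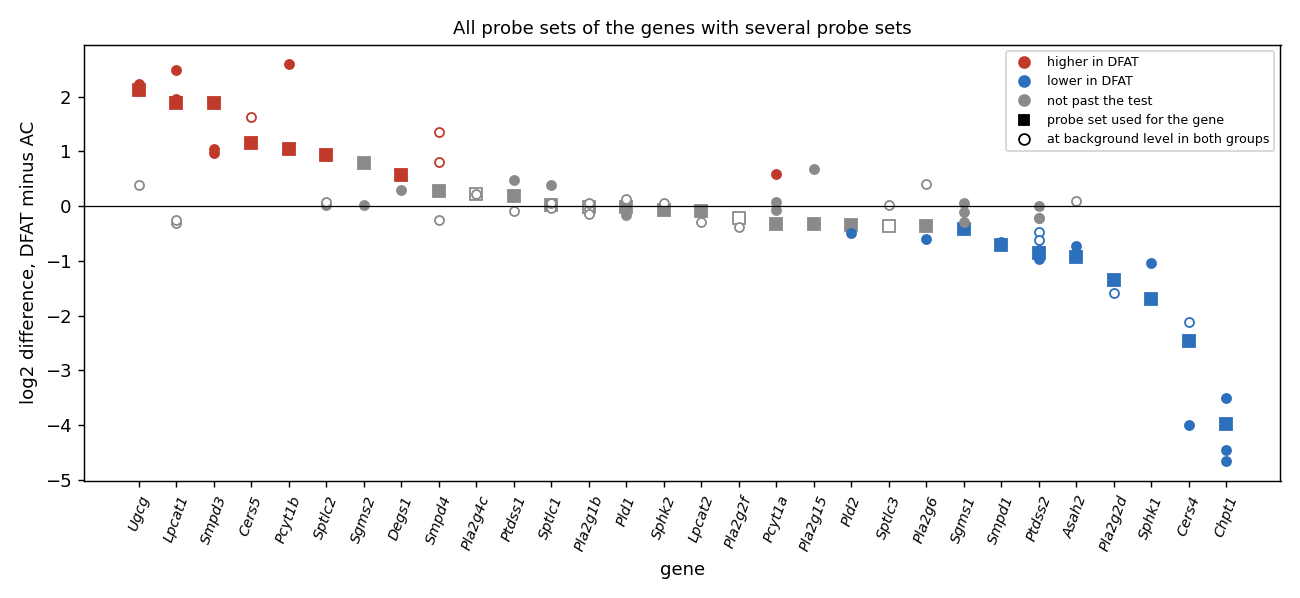
Log2 difference, DFAT minus AC, of each probe set of the 30 enzyme genes with several probe sets. Squares mark the probe set used for the gene, red and blue mark probe sets that were higher and lower in DFAT cells, and open symbols lay at background level in both groups. The 4 probe sets of Chpt1 lie between -4.66 and -3.51, and the dimmest probe set of Ugcg lies at 0.39.

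Further genes of both pathways were taken from lists that hold none of the 59. Of 40 other sphingolipid genes, 13 rose and 8 fell, so that 52.5% were called, against 46.4% of all genes, and their median difference was 0.02. With the reference genes as the centre, 12 rose and 17 fell, and with the hybridization controls 17 rose and 6 fell. At background level in both groups were 9 of the 40, against 37.8% of all genes. Among all genes, 1141 of the 6878 at background level in both groups were called. The shares of 52.5% and 46.4% are thus not like for like. Of the receptors of sphingosine 1-phosphate, 2 rose, 1 fell, and S1pr4 and S1pr5 were at background level in both groups. S1pr3 had 11.84, 11.87 and 11.86 on the DFAT arrays and 8.25, 8.21 and 8.18 on the AC arrays, a rise of 3.64, and S1pr2 rose by 3.52 and was at background level in AC. S1pr1, which is abundant in endothelium, had 5.20, 5.05 and 5.10 on the DFAT arrays and 9.35, 8.28 and 7.66 on the AC arrays, a fall of 3.31 to background level. It was highest on AC replicate 1, as the endothelial markers were. The lysosomal cofactor Gm2a and the phosphodiesterase Smpdl3a fell by 4.14 and 3.54, and the alkaline ceramidase Acer3, at background level in AC, rose by 2.58. Each of these 6 genes passed the test in the same direction under the 4 other scalings.

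Of 57 other phospholipid genes, 14 rose and 25 fell, so that 68.4% were called, against 46.4% of all genes, and their median difference was -0.34. Centred on the hybridization controls 17 rose and 12 fell, and on the reference genes 12 rose and 33 fell. At background level in both groups were 5 of the 57, against 37.8% of all genes, so here too the shares called are not like for like. Lyplal1, which is named for its likeness to lysophospholipases, Abhd3, a phospholipase of medium-chain lipids, and Agpat2, the acyltransferase that makes phosphatidic acid in fat cells, fell by 3.74, 3.61 and 3.46. Abhd3 was at background level in DFAT cells, so the size of its fall rests on values under that level. The same holds for the sizes given for S1pr1, S1pr2 and Acer3, each at background level in 1 group. Agpat2 had 8.85, 8.92 and 8.90 on the DFAT arrays and 12.54, 12.31 and 12.19 on the AC arrays. The lysophosphatidic acid receptor Lpar1 had 9.70, 9.86 and 9.65 on the DFAT arrays and 5.96, 7.06 and 6.97 on the AC arrays, a rise of 3.08. The choline transporter-like gene Slc44a2 and the lipid phosphatase gene Plpp2 rose by 2.41 and 2.35. Selenoi, the transferase that uses the product of Pcyt2, had 8.52, 8.42 and 8.47 on the DFAT arrays and 6.85, 7.86 and 7.81 on the AC arrays, a rise of 0.96 (adjusted p = 0.0211 from limma), with AC replicate 1 again the lowest.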

How the data were processed

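The labels put 3 arrays in the DFAT group and 3 in the AC group. The authors deposited values on the log2 scale after RMA, which corrects the background, normalizes between arrays and summarizes the probes of a probe set; its version and which arrays were normalized together are not given in the sources used here. Gene names came from the platform annotation. Of 45037 probe sets tested (64 control probe sets left out), 34945 have 1 symbol, 932 have several and 9160 have none. Each of the 120 member probe sets matched, through its Entrez ID, a gene of RefSeq in GRCm38.p6, which also gave the promoters. The digit in the rule was required after every prefix, and without it Smpdl3a, Smpdl3b and Sphkap would join.

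The comparison of DFAT with AC used limma 3.58.1 under R 4.3.3 (functions lmFit and eBayes at default settings, two-sided, Benjamini-Hochberg over the probe sets tested, threshold 0.05, no filter). Tested on simulated data with 45037 probe sets and 200 changes, this recovered 31% of log2 changes of 1 and 90% of changes of 2, with 2 false calls. In the data 38.4% of the probe sets were called, so the adjustment was less strict there. The shares recovered in the simulation thus do not tell how many changes were missed in the data. With 3 arrays a group the smallest p of an exact permutation test is 0.1, so none was used. The number of arrays limits the precision. The members, the lists and the tests were chosen with earlier results of these data known. Any member may be named. Values on each array are given for called members without overlap between groups and with a difference of at least 1, and for others chosen after their values were seen. From each pathway list the 3 highest and 3 lowest called genes without overlap are named, and Selenoi was added after its value was seen. Of the member genes, 3 are represented by probe sets ending in _s_at or _x_at, which can match other transcripts. Same-numbered arrays did not deviate together (correlations -0.027 to 0.0132). Tables and figures were made in Python 3.11.15 (pandas 2.3.3, matplotlib 3.10.9).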

Additional observations from a re-analysis of the deposited data

How the results depend on the processing

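With 11 enzyme genes higher and 16 lower as deposited, scaling changed the count of falls. Centred on 12 reference genes, of which 6 were higher, 2 lower and 4 not past the test in DFAT cells, 27 enzyme genes were lower and 10 higher, and centred on the 18 hybridization control probe sets 6 were lower and 15 higher. Over all probe sets the median difference was -0.06 in the deposited values, 0.40 with the hybridization controls and -0.41 with the reference genes, and higher calls made up 52.9% of the calls as deposited, 24.4% with the reference genes, 78.5% with the hybridization controls and 63.0% with array medians. Sgms1 turned to a difference of 0.05 with the hybridization controls. Student's t-test was also run, which the study used for PCR and cell assays and did not report for its arrays. By this t-test, adjusted by Benjamini-Hochberg, 10 enzyme genes were lower. What lowered the count by the t-test was not tested. By limma with a log2 difference of at least 2 required as well, 3 were higher and 3 lower, as fewer genes can pass both rules. Leaving out each array gave 10 to 13 higher and 12 to 22 lower, and the calls over all genes were not counted for this. With the replicate number as a block, 11 were higher and 16 lower, of which 11 and 15 were the genes called without it (Sgms1 was lost, Pemt gained). The numbers do not pair the arrays.

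Of the 27 called genes, 8 that rose and 5 that fell kept their call under each of the 16 to 18 alternatives that gave them a value, the requirement of a log2 difference of at least 2 aside. The rises were Asah1, Cers5, Cers6, Lpcat1, Lpcat4, Pla2g4a, Smpd3 and Ugcg, and the falls Cers4, Chpt1, Pcyt2, Pla2g2d and Pla2g7. A dim gene has only a bounded difference. With a floor at the background level, Pcyt1b, Pla2g2c, Pla2g2e, Pla2g5 and Pld4 lost their call. With the background level set at percentile 90 or 99, 12 or 18 members were at it in both groups, against 17.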
